A study of Homo sapiens with 9 samples.

Results

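EDN1 encodes preproendothelin-1, the precursor of the vasoconstrictor peptide endothelin-1, and ECE1 encodes endothelin converting enzyme 1. Both rows were taken by gene symbol from the deposited expression table, and they are 2 of its 15570 genes. The genes were selected on their FPKM differences between the groups of these same libraries. Expression was measured by RNA sequencing in 9 libraries from 1 established line of human brain capillary endothelium, hCMEC/D3, which was immortalised and serves in culture as a stand-in for the blood-brain barrier. Cells of the OGD/R group (n = 3) were deprived of glucose for 4 h in a gas mixture of 95% N2 with 5% CO2, and then had 16 h in normal medium at 21% O2 with 5% CO2. Cells of the OGD group (n = 3) were collected after the same 4 h of oxygen and glucose deprivation. Control cells (n = 3) were not deprived, and how their medium was handled is not described, so handling and deprivation cannot be told apart. Nothing states that replicates were separate cultures, so a p-value here reflects the spread among the libraries alone, and that spread may be technical.

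Endothelial cells make endothelin-1 as a long precursor that proprotein convertases such as furin cut to an inactive intermediate, big endothelin-1. Endothelin converting enzyme 1, a zinc metallopeptidase of the M13 family, cuts big endothelin-1 to the active peptide. The peptide acts on endothelin receptor A, which contracts vascular smooth muscle, and on endothelin receptor B, which in endothelium leads to nitric oxide release and peptide clearance. Neutral endopeptidase (neprilysin, gene MME), a relative of ECE1, can degrade the peptide. Control of endothelin-1 output lies largely at transcription of EDN1, although the peptide is also stored in Weibel-Palade bodies of endothelial cells.

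EDN1 is NCBI Gene 1906 on chromosome 6 (12230516 to 12297194, GRCh38.p14) and ECE1 is NCBI Gene 1889 on chromosome 1 (21217250 to 21345504). RefSeq gives 3 start windows for EDN1 and 4 for ECE1, in which the alternative starts give enzyme isoforms that differ at the N-terminus. Gene-level values do not separate these starts. The RefSeq spans overlap noncoding genes, LOC124901260 for EDN1 and ECE1-AS1 and LOC124903872 for ECE1. Reads from such a pair cannot be separated if strand was not used in counting. The 250 bases before 1 start of each gene are shown because both transcripts were highest after reoxygenation and factors known to act on EDN1 are described further on. They come from RefSeq (GRCh38.p14), run 5′ to 3′ on the transcribed strand, and lie at chr6:12290111-12290360 (plus strand, before the most downstream start) and chr1:21345505-21345754 (minus strand, before the most upstream start). Capitals mark matches on either strand to the AP-1 letters TGANTCA, the GATA letters AGATAA, the HIF letters ACGTG, the SMAD letters CAGAC, the FOXO letters GTAAACA or the TATA box letters TATAAA.
EDN1: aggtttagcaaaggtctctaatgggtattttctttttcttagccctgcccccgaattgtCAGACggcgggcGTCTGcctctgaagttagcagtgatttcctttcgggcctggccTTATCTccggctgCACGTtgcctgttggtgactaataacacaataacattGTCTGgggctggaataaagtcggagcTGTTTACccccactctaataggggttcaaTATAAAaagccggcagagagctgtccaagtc
ECE1: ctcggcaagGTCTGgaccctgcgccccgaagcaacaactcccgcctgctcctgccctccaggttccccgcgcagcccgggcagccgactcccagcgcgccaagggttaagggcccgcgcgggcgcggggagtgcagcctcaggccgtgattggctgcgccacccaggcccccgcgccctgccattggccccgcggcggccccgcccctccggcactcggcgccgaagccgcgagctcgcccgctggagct

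The EDN1 window shown was picked after the search as the one with the most matches, with 7, against 4 and 1 in the windows of its other starts. The ECE1 window shown belongs to its outermost start and held 1 match, and the windows of its other starts held 0, 1 and 1. No matches overlapped in the windows shown. Counted backwards from -1 at the base before the start, the EDN1 window had the TATA letters at -31 to -26, the FOXO letters at -60 to -54, the HIF letters at -123 to -119 and the GATA letters at -136 to -131. The SMAD letters occurred 3 times in it and 1 time in the ECE1 window. Among 35116 windows of the same length in the RefSeq table, 10.7% held the TATA letters, 2.98% the FOXO letters, 18.5% the HIF letters, 9.17% the GATA letters and 38.0% the SMAD letters. An exact match to the AP-1 letters (6.57% of windows) was in none of the 7 windows of these genes. Only exact matches were searched for, and the EDN1 window shown holds TGACTAA, 1 letter away from TGANTCA. The absence of an exact match therefore does not show that an AP-1 site is absent. GC content was 49.2% in the EDN1 window and 76.8% in the ECE1 window. Such matches describe the letters and do not show binding.

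Expression is given in FPKM, fragments per kilobase of transcript scaled to the mapped fragments of a library, as deposited, so levels of different genes can be set side by side per length. FPKM sums were 442696 to 449248 in OGD/R, 585947 to 605818 in OGD and 454237 to 537878 in control libraries. Log2 fold changes were computed after adding 1 FPKM to each value, so changes of genes near 1 FPKM are understated. The median gene among the 10818 tested differed by -0.31 in OGD against control, by 0.39 in OGD/R against OGD and by 0.07 in OGD/R against control. A relative value is therefore a fold change after subtraction of that median. The number of reads per library is not known, and counting error is therefore not given. Correlations of log2 values were 0.98 to 0.995 within groups and 0.923 to 0.977 between groups.

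EDN1 was low in control and OGD cells and several times higher after reoxygenation. It read 10.4, 13.2 and 12.9 FPKM in OGD/R libraries, 2.41, 2.34 and 2.44 FPKM in OGD libraries and 2.03, 1.94 and 1.24 FPKM in control libraries. All 3 OGD/R values lay above all others, and the OGD and control values came close to each other without overlapping. Means were 12.2 ± 1.53 FPKM in OGD/R, 2.40 ± 0.0514 FPKM in OGD and 1.74 ± 0.431 FPKM in control cells (SD, n = 3 each). The OGD/R mean was 5.08 times the OGD mean and 7.0 times the control mean.

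ECE1 took a different course after deprivation and the same one after reoxygenation. It read 31.0, 39.0 and 36.7 FPKM in OGD/R libraries, 7.20, 7.30 and 6.67 FPKM in OGD libraries and 17.5, 11.4 and 9.95 FPKM in control libraries. The order was OGD/R, control, OGD with no overlap between neighbours, and the spread relative to the mean was widest among controls, where replicate 1 stood above the other controls. Means were 35.6 ± 4.13 FPKM in OGD/R, 7.05 ± 0.339 FPKM in OGD and 12.9 ± 3.99 FPKM in control cells (SD, n = 3 each). The OGD/R mean was 5.05 times the OGD mean and 2.75 times the control mean, and the OGD mean was 0.546 of the control mean.

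The genes were proposed with results of these data in view, so their differences between groups are a description, and no p-value is given for them. The log2 fold change in OGD against control was 0.32 (SE 0.15, relative value 0.63) for EDN1 and -0.75 (SE 0.17, relative value -0.44) for ECE1. For OGD/R against OGD it was 1.95 (SE 0.15, relative value 1.56) for EDN1 and 2.18 (SE 0.17, relative value 1.79) for ECE1. For OGD/R against control it was 2.27 (SE 0.15, relative value 2.21) for EDN1 and 1.42 (SE 0.17, relative value 1.36) for ECE1. These comparisons share groups and are not independent of each other. Complete separation of 2 groups of 3 was common among all genes tested. It occurred upwards in 13.2% and downwards in 51.8% of genes in OGD against control, in 57.8% and 20.4% in OGD/R against OGD, and in 28.5% and 19.3% in OGD/R against control.

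Both genes were near the top of the table by size of change in the OGD/R comparisons. By log2 fold change in OGD/R against control, EDN1 ranked 2 and ECE1 ranked 77 from the top of 10818 genes. The ranks in OGD/R against OGD were 137 for EDN1 and 56 for ECE1. For OGD against control, EDN1 ranked 1250 from the top, and 13.6% of genes lay below ECE1. By level, EDN1 was above 52.9% of tested genes in OGD/R cells, 23.2% in OGD cells and 10.3% in control cells. ECE1 was above 79.4% in OGD/R cells, 48.4% in OGD cells and 56.7% in control cells.

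**Figure D1:**
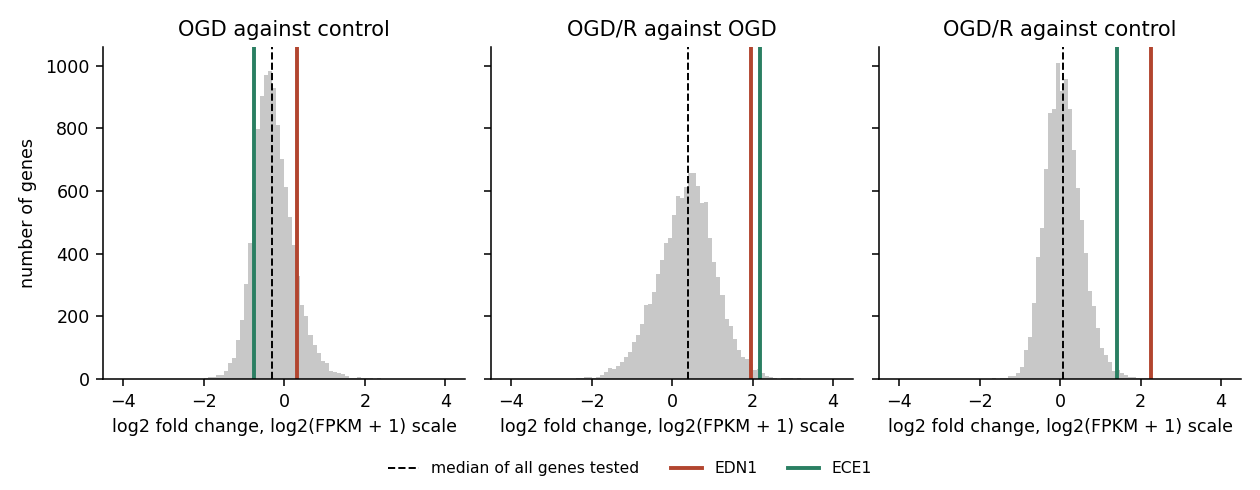
Histograms of the log2 fold change of all 10818 genes tested in the 3 comparisons, on the log2(FPKM + 1) scale, with the median gene as a dashed line and EDN1 and ECE1 as coloured lines. EDN1 and ECE1 lie on opposite sides of the median in OGD against control and far to the right of it in both OGD/R comparisons.

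The ratio of EDN1 to ECE1 within a library does not depend on scaling between libraries. It averaged 0.342 ± 0.00891 in OGD/R, 0.341 ± 0.0233 in OGD and 0.137 ± 0.0294 in control cells (SD, n = 3 each). The range was 0.336 to 0.352 in OGD/R libraries, 0.321 to 0.366 in OGD libraries and 0.116 to 0.171 in control libraries. The OGD/R and OGD ranges overlapped and both lay above the control range. ECE1 transcript was the more abundant per length in all 9 libraries.

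**Figure D2:**
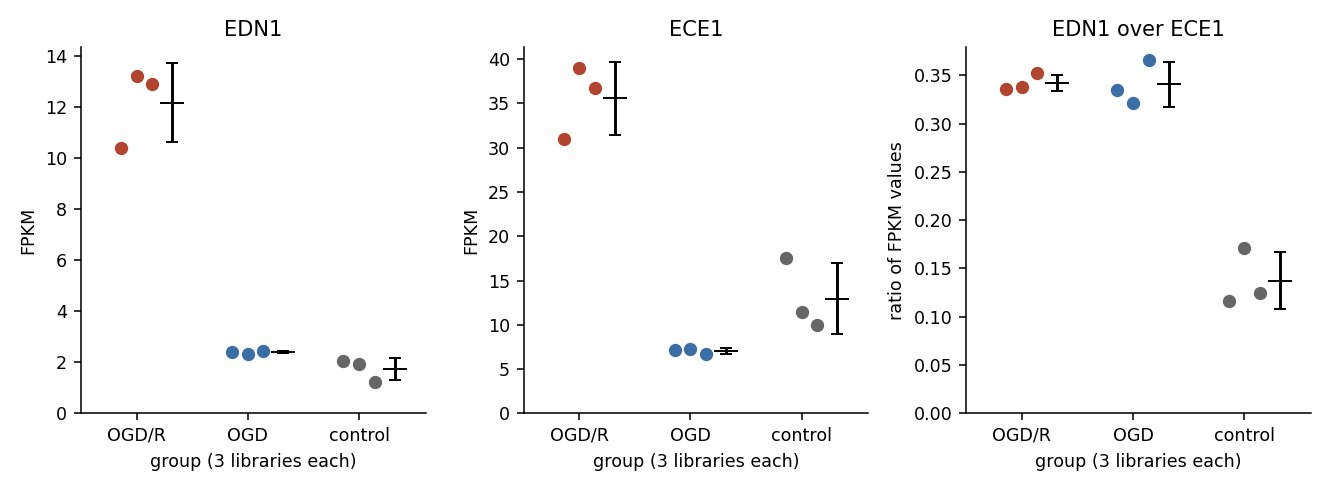
EDN1 and ECE1 in FPKM and their ratio, 1 point per library, for OGD/R, OGD and control cells. Bars are the mean and SD of 3 libraries. Both genes are highest in OGD/R, only ECE1 is lower in OGD than in control, and the ratio is near 0.34 in OGD/R and OGD and 0.137 in control.

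The other endothelin system genes were counted from lists of ligands, enzymes, receptors, signalling proteins, regulators, storage proteins and other vasoactive mediators. Like EDN1 and ECE1, these lists were chosen with earlier results of these data known. Their counts, medians and p-values are therefore a description and not independent support. Of 113 listed genes other than EDN1 and ECE1, 101 had values and 75 passed the filter of at least 1 FPKM in at least 3 libraries. With limma at an adjusted p under 0.05, OGD against control called 6 of the 75 higher and 50 lower, beside 11.3% higher and 46.7% lower among all genes tested. In OGD/R against OGD, 52 were higher and 5 lower (53.3% and 17.4% of all genes), and in OGD/R against control 25 were higher and 6 lower (24.7% and 16.5%). Calls in either direction made up 58.0%, 70.7% and 41.2% of all genes in these comparisons. The median log2 fold change of the 75 was -0.55, 0.79 and 0.19 in these comparisons. After median-of-ratios scaling the counts were 11 higher and 30 lower, 41 higher and 16 lower, and 20 higher and 12 lower. Quantile normalization gave 8 and 31, 44 and 9, and 22 and 13. Removal of the length trend gave 11 and 28, 36 and 14, and 23 and 13. Over all genes, median-of-ratios scaling (10771 tested) gave 2935 higher and 2402 lower, 3400 and 3794, and 2323 and 2556. Quantile normalization (10818 tested) gave 2178 and 2474, 3438 and 3353, and 2407 and 2466 over all genes. Without the length trend (10792 tested) all genes gave 2495 and 2479, 3320 and 3453, and 2354 and 2406. The number called in OGD/R against control was 19 without OGD/R replicate 2 and 19 without OGD/R replicate 3, against 31 with all libraries.

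EDN1 was the only endothelin ligand past the filter. EDN2, which encodes endothelin-2, read 0.547, 0.231 and 0.360 FPKM in OGD/R, 0.0810, 0.0359 and 0.0805 FPKM in OGD and 1.06, 0.456 and 0.510 FPKM in control libraries. It was not tested, and its OGD values lay below those of the other groups. EDN3 was not analysed here.

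Of the convertases that can release big endothelin-1, FURIN moved in the direction of ECE1 in each comparison. FURIN read 10.8, 12.9 and 11.7 FPKM in OGD/R, 2.16, 2.06 and 1.83 FPKM in OGD and 7.55, 6.24 and 4.33 FPKM in control libraries, with no overlap between groups. It rose in OGD/R against OGD (log2 fold change 2.08, SE 0.16, adjusted p = 6.51e-07) and in OGD/R against control (0.89, adjusted p = 0.00121). It fell in OGD against control (-1.20, relative value -0.89, adjusted p = 0.000119). Each FURIN call held under every alternative run.

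PCSK7, another proprotein convertase of the secretory pathway, averaged 4.38 ± 0.967 FPKM in OGD/R, 1.96 ± 0.0601 FPKM in OGD and 1.67 ± 0.256 FPKM in control cells (SD, n = 3 each). It rose in OGD/R against OGD (log2 fold change 0.85, adjusted p = 0.000273) and in OGD/R against control (1.0, adjusted p = 0.000338). The first rise was lost in quantile-normalized values (adjusted p = 0.0666). PCSK7 did not pass in OGD against control (0.15, adjusted p = 0.403), where it was called higher with median-of-ratios scaling (0.41, adjusted p = 0.0183) and with quantile normalization (0.51, adjusted p = 0.00598). PCSK7 overlaps TAGLN on the genome, which read 120.0 to 125 FPKM in OGD/R, 170.0 to 178 FPKM in OGD and 47.7 to 60.5 FPKM in control libraries, so its values are uncertain. PCSK1, PCSK4 and PCSK6 stayed under 1 FPKM in all 9 libraries, and PCSK2 and PCSK5 were not analysed here.

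Among the M13 peptidases, MME was the only measured relative of ECE1 past the filter, and it did not follow ECE1. MME read 7.41, 10.5 and 8.87 FPKM in OGD/R, 12.4, 11.5 and 12 FPKM in OGD and 11.4, 9.11 and 9.69 FPKM in control libraries. It fell in OGD/R against OGD (log2 fold change -0.40, adjusted p = 0.0167), a call lost without OGD/R replicate 1 (adjusted p = 0.0744) or OGD replicate 1 (adjusted p = 0.0543). It did not pass in OGD against control (0.24, relative value 0.55, adjusted p = 0.140). It was higher there after median-of-ratios scaling (0.59, adjusted p = 0.00061), quantile normalization (0.59, adjusted p = 0.00106) and removal of the transcript length trend (0.43, adjusted p = 0.00552). OGD/R against control gave -0.16 (adjusted p = 0.346), and -0.26 (adjusted p = 0.0423) and -0.29 (adjusted p = 0.0321) after median-of-ratios scaling and quantile normalization. ECEL1, KEL, MMEL1 and PHEX were at most 0.127 FPKM in any library, and ECE2 was not analysed here.

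Neither endothelin receptor gene passed the filter. EDNRA, receptor A, read 0.277, 0.449 and 0.231 FPKM in OGD/R, 0.162, 0.137 and 0.142 FPKM in OGD and 0.508, 0.371 and 0.239 FPKM in control libraries. EDNRB, receptor B, was listed at 0 in 8 libraries and at 0.0117 FPKM in control replicate 3.

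**Figure D3:**
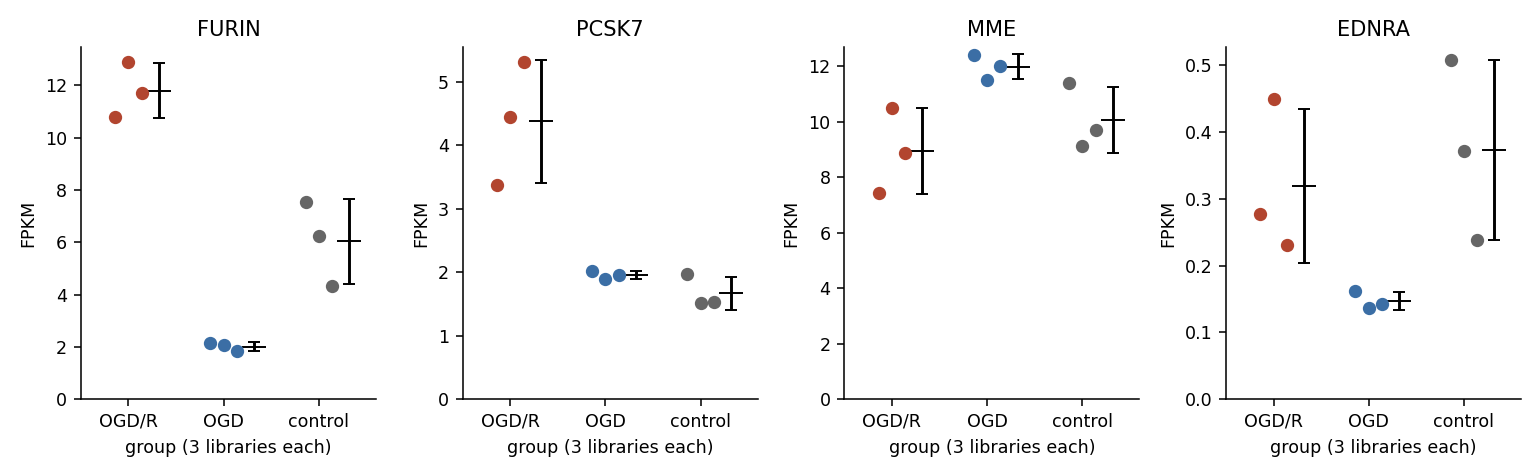
FPKM of FURIN, PCSK7, MME and EDNRA, 1 point per library, for OGD/R, OGD and control cells, with the mean and SD of 3 libraries as bars. FURIN is highest in OGD/R and lowest in OGD, PCSK7 is high in OGD/R, MME has its highest mean in OGD, and EDNRA stays under 1 FPKM in every library.

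Of 26 genes for receptor coupling and signalling, 24 were tested. Against control, 2 were higher and 18 lower in OGD (median log2 fold change -0.59). In OGD/R, 21 were higher and 1 lower against OGD (0.75), and 7 were higher and 1 lower against control (0.19). Among all genes 46.7% were lower in OGD than in control, and 53.3% and 24.7% were higher in OGD/R than in OGD and in control. Higher and lower calls of this list numbered 2 and 10, 14 and 2, and 4 and 3 with median-of-ratios scaling. They numbered 2 and 12, 14 and 2, and 6 and 4 with quantile normalization. With the length trend removed they numbered 3 and 10, 13 and 5, and 4 and 5. The counts over all genes under these settings also moved and are given above. PLCB3, a phospholipase C beta that acts downstream of Gq, averaged 8.68 FPKM in OGD/R and 2.55 FPKM in OGD, the largest rise of the list in that comparison (log2 fold change 1.45, adjusted p = 6.09e-05). ITPR3, an inositol trisphosphate receptor that releases calcium, averaged 9.08 FPKM in OGD/R and 4.12 FPKM in control (0.99, adjusted p = 0.000242). RGS4, which shortens G protein signalling, moved against the list. It averaged 72.7 ± 3.26 FPKM in OGD, against 36.6 ± 4.18 FPKM in control (log2 fold change 0.98, adjusted p = 2.99e-05), and 38.7 ± 4.69 FPKM in OGD/R (-0.90 against OGD, adjusted p = 1.36e-05). RGS2, another such regulator, averaged 0.623 FPKM in OGD and 2.42 FPKM in control (log2 fold change -1.0, adjusted p = 0.00351). ARRB2, beta-arrestin 2, was the 1 gene lower in OGD/R than in control (34.5 and 44.6 FPKM, -0.36, adjusted p = 0.0144), a call lost without OGD/R replicate 3 (adjusted p = 0.0608).

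The list of transcription factors and coactivators included factors known to act on the EDN1 promoter. They were counted without regard to the direction of that action, and 19 of 20 were tested. This list too was chosen with earlier results of these data known, so its counts and medians are a description. Against OGD, 17 were higher and 0 lower in OGD/R, beside 53.3% and 17.4% of all genes tested. The median log2 fold change there was 1.07, against 0.39 for all genes. In OGD/R against control 9 were higher and 1 lower (median 0.49), beside 24.7% and 16.5% of all genes. In OGD against control 0 were higher and 15 lower (median -0.63), beside 11.3% and 46.7% of all genes. OGD against control gave 2 higher and 11 lower with median-of-ratios scaling, 1 and 8 with quantile normalization, and 2 and 10 with the length trend removed. OGD/R against OGD gave 14 and 2, 15 and 2, and 14 and 2 under those settings. OGD/R against control gave 8 and 2, 7 and 1, and 10 and 2. The percentages of all genes in this paragraph hold for the deposited scale, and the all-gene counts under those settings are given above. SMAD3, an effector of TGF-beta signalling, read 21.0, 26.3 and 21.6 FPKM in OGD/R, 6.36, 4.90 and 5.29 FPKM in OGD and 9.53, 10.1 and 7.60 FPKM in control libraries, with no overlap between groups. It had the list's largest rise both in OGD/R against OGD (log2 fold change 1.88, adjusted p = 4.13e-07) and in OGD/R against control (1.25, adjusted p = 5.48e-05). Its fall in OGD against control (-0.63, adjusted p = 0.00239) was lost after quantile normalization (adjusted p = 0.106).

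FOS and JUN, subunits of AP-1, were lowest in OGD. FOS averaged 17.2 ± 2.70 FPKM in OGD/R, 4.39 ± 0.541 FPKM in OGD and 11.4 ± 3.64 FPKM in control cells (SD, n = 3 each), and it rose in OGD/R against OGD (log2 fold change 1.75, adjusted p = 9.71e-06). JUN averaged 56.6 ± 4.33 FPKM in OGD/R, 26.4 ± 1.54 FPKM in OGD and 51.1 ± 10.8 FPKM in control cells (1.07 in OGD/R against OGD, adjusted p = 1.35e-05). Both fell in OGD against control (FOS -1.16, adjusted p = 0.000544, and JUN -0.91, adjusted p = 0.000146). JUN did not pass in OGD/R against control (0.16, adjusted p = 0.336), except without control replicate 1 (0.32, adjusted p = 0.0218). The FOS rise there (0.59, adjusted p = 0.0326) was lost under several alternatives, among them leaving out control replicate 2 (adjusted p = 0.102) or OGD/R replicate 2 (adjusted p = 0.116) or 3 (adjusted p = 0.101).

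GATA2, an endothelial factor that binds the EDN1 promoter, averaged 3.75 FPKM in OGD/R, 0.885 FPKM in OGD and 2.01 FPKM in control cells. It rose in OGD/R against OGD (log2 fold change 1.34, adjusted p = 4.22e-05) and in OGD/R against control (0.67, adjusted p = 0.0123). Quantile normalization ended the second call (adjusted p = 0.066). KLF4 and KLF2, shear-responsive factors, averaged 10.7 and 7.25 FPKM in OGD/R, 3.83 and 3.38 FPKM in OGD and 7.29 and 5.26 FPKM in control cells. For OGD/R against control their log2 fold changes were 0.49 (adjusted p = 0.016) and 0.40 (adjusted p = 0.0614), so KLF2 did not pass. They rose in OGD/R against OGD by 1.27 (adjusted p = 8.83e-06) and 0.90 (adjusted p = 0.000259) on the log2 scale. HIF1A, the oxygen-regulated subunit of HIF-1, averaged 65.2 FPKM in OGD/R, 49.7 FPKM in OGD and 78.8 FPKM in control cells. Its rise in OGD/R against OGD (log2 fold change 0.38, relative value -0.01, adjusted p = 0.0119) turned to -0.10 after median-of-ratios scaling and -0.29 after removal of the length trend. CEBPD, a C/EBP factor, fell in OGD against control by 2.35 on the log2 scale (16.0 and 85.4 FPKM, adjusted p = 1.07e-07) and was also lower in OGD/R than in control (51.8 and 85.4 FPKM, -0.71, adjusted p = 0.000676).

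Of 20 genes for the Weibel-Palade body and its exocytosis, 14 were tested. The list medians of the log2 fold change were -0.32, 0.42 and -0.02 in the 3 comparisons, against -0.31, 0.39 and 0.07 for all genes. In OGD against control 3 were higher and 8 lower (11.3% and 46.7% of all genes tested). In OGD/R against OGD 6 were higher and 3 lower (53.3% and 17.4% of all genes). In OGD/R against control 4 were higher and 1 lower (24.7% and 16.5% of all genes). With median-of-ratios scaling these splits were 4 and 3, 6 and 7, and 3 and 3. With quantile normalization they were 1 and 6, 8 and 1, and 3 and 1. With the length trend removed they were 3 and 4, 4 and 3, and 4 and 1. The all-gene counts under these settings are given above. VWF, the main cargo of the body, stayed at or under 0.0881 FPKM in every library, and SELP was not analysed here. RAB3D, a small GTPase of secretory granules, averaged 3.78 FPKM in OGD/R, 0.818 FPKM in OGD and 3.75 FPKM in control cells. It fell in OGD against control (log2 fold change -1.37, adjusted p = 3.10e-05) and rose in OGD/R against OGD (1.39, adjusted p = 6.68e-06). PDIA4, a disulfide isomerase of the endoplasmic reticulum rather than a granule protein, averaged 45.9 FPKM in OGD/R, 54.4 FPKM in OGD and 20.1 FPKM in control cells. It had the list's largest rise in OGD against control (1.39, adjusted p = 9.13e-07) and in OGD/R against control (1.15, adjusted p = 7.31e-06). IGFBP7, a secreted protein, was lower in OGD/R (628 FPKM) than in OGD (1130.3 FPKM, -0.85, adjusted p = 1.49e-05) and control (866 FPKM, -0.46, adjusted p = 0.00395). Quantile normalization ended the first of these calls (-0.13, adjusted p = 0.27), and IGFBP7 and RAB3D overlap other coding genes, POLR2B and TSPAN16.

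Of 30 other vasoactive mediators 15 were tested. Their median log2 fold changes were -0.42, 0.31 and 0.10 in the 3 comparisons, against -0.31, 0.39 and 0.07 for all genes. In OGD against control 1 was higher and 8 lower (11.3% and 46.7% of all genes tested). In OGD/R against OGD 6 were higher and 0 lower (53.3% and 17.4% of all genes). In OGD/R against control 3 were higher and 3 lower (24.7% and 16.5% of all genes). The splits became 1 and 5, 5 and 4, and 3 and 3 with median-of-ratios scaling (14 tested). They were 2 and 4, 6 and 3, and 4 and 6 with quantile normalization. With the length trend removed they were 2 and 3, 3 and 3, and 3 and 5. The all-gene counts under these settings are given above. ADM encodes the vasodilator adrenomedullin. It read 138, 187 and 151 FPKM in OGD/R, 68.5, 62.6 and 71.2 FPKM in OGD and 150.0, 101 and 118 FPKM in control libraries, so that OGD/R overlapped control. It rose in OGD/R against OGD (log2 fold change 1.21, adjusted p = 1.19e-05), fell in OGD against control (-0.84, adjusted p = 0.000499) and did not pass in OGD/R against control (0.38, adjusted p = 0.0516). The last was called under some alternatives, among them quantile normalization (0.51, adjusted p = 0.0144) and leaving out control replicate 1 (0.53, adjusted p = 0.00794). APLN, the precursor of the peptide apelin, averaged 7.25 FPKM in OGD/R, 1.58 FPKM in OGD and 7.52 FPKM in control cells, with log2 fold changes of 1.67 in OGD/R against OGD (adjusted p = 7.74e-07) and -1.72 in OGD against control (adjusted p = 2.81e-06).

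THBD, thrombomodulin, averaged 1.32 FPKM in OGD/R, 1.15 FPKM in OGD and 0.272 FPKM in control cells and rose in both against control (log2 fold changes 0.87, adjusted p = 0.00052, and 0.76, adjusted p = 0.000778). RAMP1, a receptor partner protein, was lower in OGD/R than in control (0.217 and 1.05 FPKM, -0.75, adjusted p = 0.0203). That call was lost with no filter on low values (adjusted p = 0.057) and when control replicate 3 or OGD/R replicate 1 or 2 was left out (adjusted p from 0.0709 to 0.0728). CAV1, the caveolar coat protein, averaged 111 FPKM in OGD/R, 96.4 FPKM in OGD and 104 FPKM in control cells and passed no test with all libraries on the deposited scale (adjusted p from 0.107 to 0.482). Without control replicate 2 it passed in OGD/R against OGD (0.20, adjusted p = 0.0234) and in OGD/R against control (0.22, adjusted p = 0.0393). NOS3 was not analysed here.

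**Figure D4:**
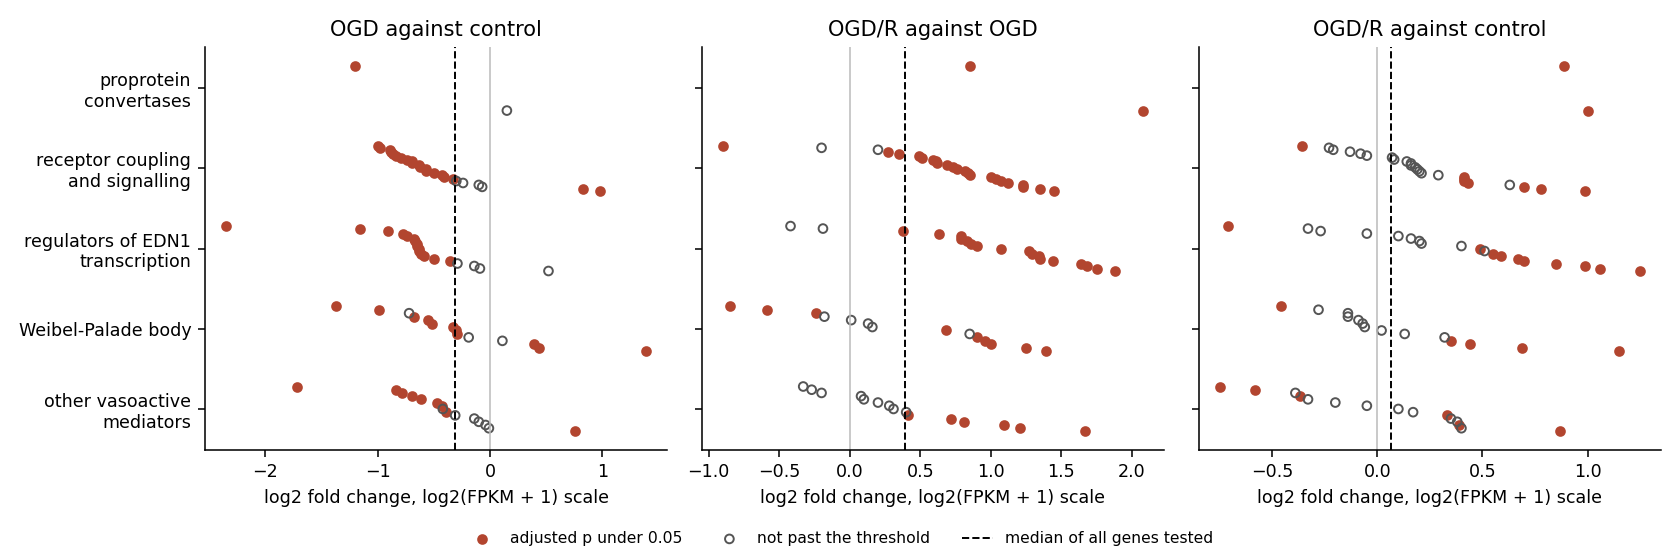
Log2 fold change of each tested list gene other than EDN1, ECE1 and MME, on the log2(FPKM + 1) scale, in the 3 comparisons. Filled points passed the test at an adjusted p under 0.05, open points did not, and the dashed line is the median of all genes tested. On this deposited scale 17 of 19 regulators are filled to the right of 0 in OGD/R against OGD, where 53.3% of all genes were called higher. In OGD against control 15 of 19 are filled to the left, where 46.7% of all genes were called lower. Median-of-ratios scaling gave 11 regulators lower and 2 higher in OGD against control, beside 2402 lower and 2935 higher of 10771 genes tested.

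The profile of EDN1 over the 9 libraries was compared with that of every tested gene, as a description, since the libraries share scaling and group. ECE1 had a Pearson r of 0.88 with EDN1. By Pearson r the genes most like EDN1 were ITGA11 (0.994), an integrin subunit, SLC2A1 (0.992), the glucose transporter GLUT1, BIRC3 (0.991), a ubiquitin ligase of NF-kB signalling, IL6 (0.989) and ETV4 (0.989), an ETS factor that overlaps DHX8. In size of change, measured as Euclidean distance between centred log2 profiles, the nearest were LIF (0.578), LOXL2 (0.651), NPIPB5 (0.723), ITGA5 (0.842) and IL6 (0.901). LIF, a cytokine of the interleukin 6 family, averaged 18.7 FPKM in OGD/R, 4.48 FPKM in OGD and 4.40 FPKM in control cells. LOXL2, which crosslinks collagen, averaged 109 FPKM in OGD/R, 33.3 FPKM in OGD and 29.5 FPKM in control cells. NPIPB5 belongs to a family of near-identical copies, so its values are uncertain.

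ECE1 shared its profile with far more genes. An r of at least 0.95 was reached by 1137 genes with ECE1 and by 120 with EDN1. Correlations and distances for both genes used the deposited scale and were not repeated under other scalings. On that scale the median gene, like ECE1, was lower in OGD than in control and higher in OGD/R than in OGD. The part of that shift in these numbers was not tested. The highest r with ECE1 were those of AGRN (0.998), the basement membrane proteoglycan agrin, COLGALT1 (0.998), which glycosylates collagen, CPSF7 (0.997), PLBD2 (0.997) and SRRM2 (0.997), a splicing-associated protein. By distance the nearest were LGALS3BP (0.33), ANPEP (0.339), GALNT2 (0.347), INCENP (0.348) and CSF1 (0.359). ANPEP, the cell-surface aminopeptidase N, averaged 11.1 FPKM in OGD/R, 1.80 FPKM in OGD and 4.22 FPKM in control cells. LGALS3BP, a secreted glycoprotein, averaged 137 FPKM in OGD/R, 26.6 FPKM in OGD and 51.4 FPKM in control cells.

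**Figure D5:**
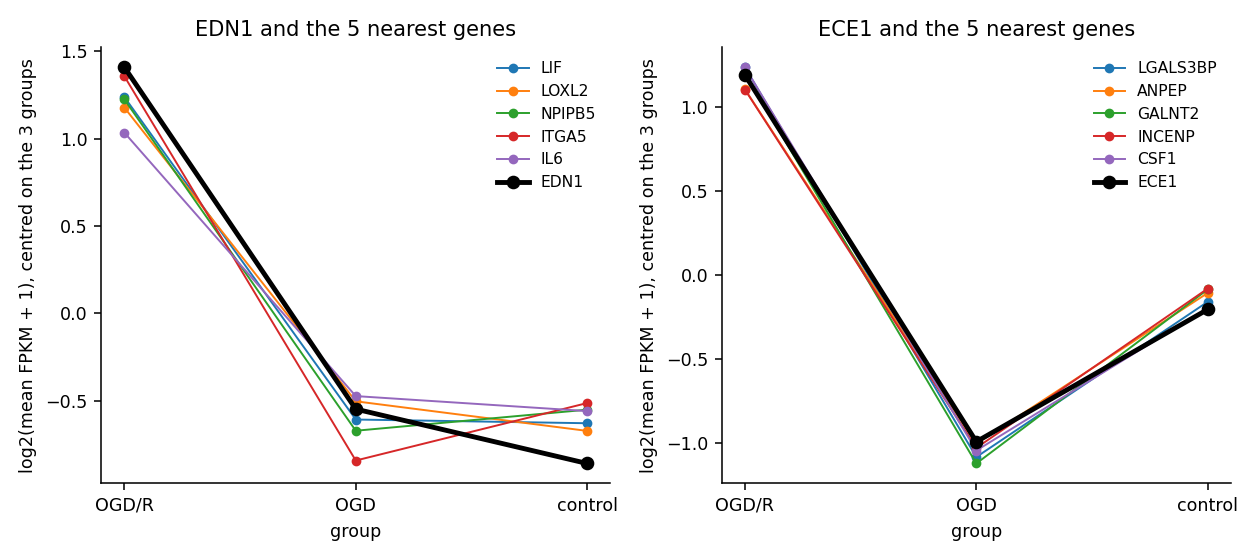
Group means of EDN1 (left) and ECE1 (right) and of the 5 genes nearest to each by distance, as log2(mean FPKM + 1) centred on the 3 groups. EDN1 and its neighbours are high in OGD/R and closer together in OGD and control, and ECE1 and its neighbours are lowest in OGD.

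Markers of cell types also differed between groups. The 17 endothelial markers with values, of which CDH5, PECAM1, EGFL7, ROBO4, ENG, MCAM and CD34 passed the filter, summed to 107 to 122 FPKM in OGD/R, 36.4 to 37.4 FPKM in OGD and 51.7 to 65.9 FPKM in control libraries. MCAM (54.2 to 64.9 FPKM in OGD/R) and ENG (30.3 to 38.0 FPKM in OGD/R) made up most of it. EGFL7 read 6.71 to 11.6 FPKM in OGD/R and 10 to 14.8 FPKM in control libraries, and PECAM1 and CD34 also overlapped between OGD/R and control. VWF, CLDN5 and KDR were at most 0.101 FPKM, so several defining endothelial transcripts were near 0. Pericyte and smooth muscle markers had 7 of 11 past the filter. They summed to 153 to 158 FPKM in OGD/R, 183 to 191 FPKM in OGD and 65.2 to 83.0 FPKM in control libraries. Most of that sum was TAGLN, and MYH11 was at most 0.0574 FPKM. PDGFRB, CSPG4, ACTA2, CNN1 and NOTCH3 went the other way, each lower in all OGD than in all control libraries, while RGS5 overlapped. PDGFRB read 0.972 to 1.29 FPKM in OGD and 2.17 to 3.38 FPKM in control libraries. Fibroblast markers (3 of 6 past the filter) summed to 52.2 to 69.7 FPKM in OGD/R, 9.23 to 10.8 FPKM in OGD and 20.5 to 28.6 FPKM in control libraries, nearly all from COL1A1 and COL1A2, with DCN at most 0.186 and PDGFRA at most 0.0118 FPKM. LUM did not follow them, at 2.87 to 4.07 FPKM in OGD/R, 3.12 to 3.66 FPKM in OGD and 4.08 to 4.68 FPKM in control libraries. Epithelial markers (3 of 8 past the filter) summed to 241 to 261 FPKM in OGD/R, 131 to 141 FPKM in OGD and 169 to 203 FPKM in control libraries, mostly from KRT18, and EPCAM was at most 0.104 FPKM. Astrocyte, neuron and leukocyte markers (1 of 11 past the filter, CD68) summed to 26.6 to 28.5 FPKM in OGD/R, 21.6 to 22.5 FPKM in OGD and 17.7 to 20.8 FPKM in control libraries, with PTPRC at most 0.1 FPKM. All libraries came from 1 cell line, so these sums describe transcript levels and do not measure amounts of different cell types. The part of these markers in the EDN1 and ECE1 differences was not tested. In bulk RNA a shift among cells of the line and a change in RNA per cell cannot be told apart.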

How the data were processed

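The authors deposited 1 table of FPKM, with a value for each gene in each library, and these FPKM were used as they stood. GRCh38 is the build named in the submitters' processing notes. The aligner, quantification tool, annotation and strand setting were not given in the sources used here. Columns were assigned to samples by library name. The logarithm to base 2 of FPKM + 1 was fitted in limma 3.58.1 (R 4.3.3; 1 fit of 3 groups, eBayes with trend) for the 10818 of 15570 genes that reached 1 FPKM in 3 or more libraries. P-values were 2-sided, with Benjamini-Hochberg adjustment over all genes tested and a threshold of 0.05. The fit was tested on simulated data. The number of reads per library is not known, so depth is unknown.

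Genes named were EDN1 and ECE1, all listed ligands, peptidases, convertases and receptors, the largest called rise and fall of each other list and comparison, 10 preset genes and the 5 nearest profiles by each measure. Of the preset genes, NOS3 was not analysed here. The 2 genes and all lists were chosen with earlier results of these data known. Alternatives were a pseudocount of 0.1, no filter, median-of-ratios scaling, quantile normalization, removal of a trend on GENCODE 29 transcript length (10792 genes), a robust prior, a replicate block and leaving out each library. Plots were made in Python 3.11.15 with matplotlib 3.10.9.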

Additional observations from a re-analysis of the deposited data

How the results depend on the processing

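The direction of both genes in all 3 comparisons was the same under every alternative run. Some alternatives could not change it. A robust prior, a replicate block, no filter and leaving out a library of the group not compared leave a log2 fold change as it was. In OGD against control, EDN1 and ECE1 gave 0.59 and -0.41 on the log2 scale with median-of-ratios scaling, 0.70 and -0.37 in quantile-normalized values, and 0.63 and -0.40 with the length trend removed. In OGD/R against OGD they gave 1.55 and 1.73, 1.44 and 1.83, and 1.56 and 1.70 under those alternatives, and 2.29 and 2.31 with a pseudocount of 0.1, which also gave 2.76 for EDN1 in OGD/R against control. Leaving out each library gave EDN1 0.19 to 0.40, 1.89 to 2.05 and 2.13 to 2.37 for the comparisons OGD to control, OGD/R to OGD and OGD/R to control, and ECE1 -0.91 to -0.53, 2.11 to 2.27 and 1.27 to 1.65.

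Counts over all genes moved with scaling. Genes called higher and lower in OGD against control numbered 1218 and 5054, or 2935 and 2402 (median-of-ratios), 2178 and 2474 (quantile) and 2495 and 2479 (length trend). In OGD/R against OGD they numbered 5770 and 1878, or 3400 and 3794, 3438 and 3353, and 3320 and 3453. For OGD/R against control they numbered 2673 and 1787, or 2323 and 2556, 2407 and 2466, and 2354 and 2406. List genes called in OGD/R against control ranged from 19 to 35 when a library was left out. The causes were not tested.

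Of the 75 listed genes tested, 12 in OGD against control, 18 in OGD/R against OGD and 1 in OGD/R against control turned direction under some alternative with a call on at least 1 side, and 23, 21 and 20 turned when uncalled values are counted too. Of the genes named in the text, those with a call were IGFBP7 in OGD against control (-0.17, quantile) and, in OGD/R against OGD, ARRB2 (-0.21, median-of-ratios, and -0.01, length trend), HIF1A (-0.10 and -0.29), CAV1 (-0.29 and -0.30) and THBD (-0.33, quantile, and -0.58, length trend). Replicate numbers are shared between groups. Deviations from group means correlated between -0.20 and 0.148 for same-numbered libraries and between -0.242 and 0.37 for other-numbered libraries. With 3 libraries in a group such correlations cannot exclude pairing, and the main fit assumed none. Every group holds the same replicate numbers, so a replicate block cannot change a log2 fold change. With it EDN1 and ECE1 therefore kept 0.32 and -0.75, 1.95 and 2.18, and 2.27 and 1.42. List genes called with the block were 6 higher and 48 lower, 51 and 4, and 22 and 5. Depth is unknown, so the precision of EDN1 near 2 FPKM rests on the spread of 3 libraries.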
